A study of Mus musculus with 40 samples.

Results

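Developing oligodendrocytes from wild-type C57BL/6 mice were compared after 1 h of interferon-gamma (IFN-gamma) at 200 U/ml and after 1 h without treatment, to describe the genes whose transcripts change first. The comparison used the 4 IFN-gamma and the 4 untreated libraries that the labels place at 1 h, which are 8 of the 40 RNA sequencing libraries of the study. The other libraries are untreated and IFN-gamma cells of 8, 24 and 48 h and cells given thapsigargin, labelled 200 uM, for 1 or 8 h, with 4 in each of the 10 groups. Progenitors had been purified by immunopanning from the cortices of 6 day old pups, taken through 2 passages, left to differentiate for 12 to 14 h and then assigned to treatment plate by plate. These cultures are therefore early, purified oligodendrocyte lineage cells, although the tissue label of the samples reads whole brain. The labels do not say whether the 4 libraries of a group are separate cultures or animals. Xist and Y-linked levels differed between the IFN-gamma libraries, so these are not all repeats of a single culture. How many cultures or animals a group holds is not known. The p-values here come from a fit over all 40 libraries and reflect only how far libraries of a group scatter, part of which may be technical.

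IFN-gamma, a cytokine released by activated T cells and natural killer cells, binds the receptor chains IFNGR1 and IFNGR2 and activates the kinases JAK1 and JAK2. The signal reaches GAS elements in DNA without new protein synthesis, and among the first targets is IRF1, itself a transcription factor that binds the related ISRE motif and drives a later set of genes. In oligodendrocytes IFN-gamma is known for inducing antigen presentation genes and for disturbing myelin formation.

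The 8 libraries held 16046273 to 22227298 reads on genes. The lineage markers Pdgfra, Cspg4, Olig1, Olig2 and Sox10 were abundant in each of them, from a lowest value of 461 CPM (read counts scaled to a common effective library size) for Sox10 to a highest of 2536 CPM for Pdgfra. IFN-gamma replicate 2 stood apart, where features resembling ribosomal RNA took 28.3% of the reads, while they took 0.694 to 3.99% in the remaining 7. IFN-gamma replicates 2 and 3 also had high levels of Xist, which coats an inactive X (635 and 319.5 CPM), and low summed Y-linked transcripts (6.93 and 0.734 CPM), whereas the other 6 libraries had 144 to 290 Y-linked CPM. Untreated replicates 1 and 3 carried both, with Xist at 183 and 135.5 CPM, and untreated replicate 1 was also above its Y-linked level of 144 CPM. Replicates 1 and 2 of both groups come from the lower 20 library numbers and replicates 3 and 4 from the upper 20.

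One hour of IFN-gamma raised a small set of transcripts by large factors and lowered a smaller set, all but 1 by less than 2-fold. Of 15135 genes tested, 163 rose (1.08%) and 32 fell (0.211%) at an adjusted p under 0.05 in edgeR's quasi-likelihood test with Benjamini-Hochberg adjustment. A change of at least 2-fold was called for 90 genes (0.595%), of which 89 rose, and 21 genes rose by at least 10-fold. The median log2 fold change over all genes was 0.0031. In 192 of the 195 called genes the treated and untreated libraries did not overlap, where over all genes tested the treated libraries were all above in 4.74% and all below in 4.18%. Without IFN-gamma replicate 2, 167 genes rose and 17 fell, and 148 of the 163 rises and 15 of the 32 falls were called again. The number of falls is fragile: it lay between 11 and 50 when each library in turn was left out, and between 132 and 167 for the rises.

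**Figure D1:**
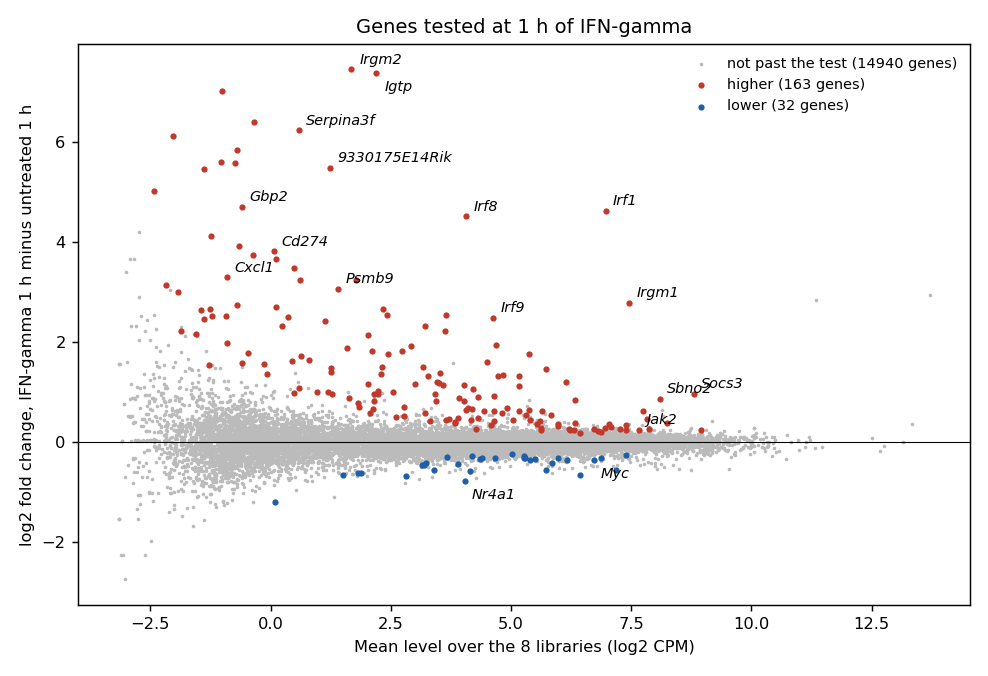
Each point is a gene, placed by its mean level over the 8 libraries (log2 CPM, horizontal) and its log2 fold change at 1 h (vertical), coloured by the call. The 163 rises reach 7.46 on the log2 scale for Irgm2, while all but 1 of the 32 falls are under 2-fold. Irf1 and Irgm1 combine a large rise with a high level.

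The summed gain of the 163 rises was 3628 CPM, and 43.9% of it came from 5 genes. Irf1 gave the most, 16.7%, followed by Irgm1, a membrane-remodelling GTPase of cell-autonomous immunity, with 11.3%. Socs3, an inhibitor of cytokine receptors that signal through gp130, gave 8.68%, Sbno2, a transcriptional coregulator known from interleukin-10 signalling, 4.65%, and Pou3f2, a POU domain transcription factor, 2.61%. Sbno2 and Pou3f2 were named after their values were seen.

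Among the transcription factors, Irf1 stood at 24.9, 26.2, 24.1 and 26.7 CPM in the untreated libraries and at 543, 427, 834 and 725 CPM in the IFN-gamma libraries. Every treated value was at least an order of magnitude above every untreated value, and the log2 fold change was 4.63 ± 0.13 (SE, adjusted p = 1.7e-24). Irf8, a factor best known from myeloid cells and B cells, went from 4.10, 3.53, 3.78 and 2.95 CPM to 61.8, 42.8, 126 and 102 CPM. Its log2 fold change was 4.52 ± 0.21 (adjusted p = 1.09e-17), again with no overlap. Irf9, the DNA-binding subunit of the ISGF3 complex, rose by 2.5 ± 0.12 to 59.9 CPM ± 17.8 (SD, n = 4) by edgeR (adjusted p = 2.22e-17). These 3 were the called members among 9 IRF family genes tested, whose median log2 fold change was 0.35. Of all genes tested 1.08% rose. Irf7, which amplifies type I interferon responses, had 7 reads over the untreated and 25 over the treated libraries and did not pass the test.

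The signalling chain itself moved less. Stat2, a subunit of ISGF3, went from 13.8, 13.4, 12.5 and 12.5 CPM to 34.01, 28.7, 54.4 and 41.0 CPM, with no overlap and a log2 fold change of 1.60 ± 0.14 (edgeR, adjusted p = 3.39e-10). The kinases Jak2 and Jak1 were called with changes of 0.26 ± 0.06 and 0.24 ± 0.06, and their calls were lost in 7 and 8 of 20 other settings, among them leaving out untreated replicate 3 (adjusted p = 0.0628 and 0.0885). The receptor genes Ifngr1 and Ifngr2 gave log2 fold changes of -0.08 and -0.08 and did not pass.

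Feedback inhibitors rose alongside. Socs1, which blocks JAK kinase activity, was at 0.648, 0.589, 0.420 and 0.180 CPM in untreated cells and at 3.57, 2.498, 5.61 and 6.67 CPM after IFN-gamma, with a log2 fold change of 3.24 ± 0.41 (edgeR, adjusted p = 9.78e-07). Socs3 started far higher, at 426, 391, 245 and 239 CPM, and reached 659, 648, 511 and 742 CPM. Its treated values lay above all untreated ones, but the untreated libraries of the lower numbers stood above those of the upper numbers, and the log2 fold change was 0.66 within the lower and 1.38 within the upper library numbers (0.98 ± 0.16 over all, adjusted p = 8.82e-05). Cish, a SOCS family inhibitor of STAT5 signalling, rose by 1.83 ± 0.14, and Socs2, a regulator of growth hormone signalling, by 0.97 ± 0.20. In all, 4 of 17 feedback genes tested rose and none fell (median 0.09), where 1.08% of all genes tested rose and 0.211% fell.

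The steepest rises were in the immunity-related GTPases (IRGs), interferon-induced proteins that act on the vacuoles of intracellular pathogens. Irgm2 was at 0.216, 0.181, 0.180 and 0.241 CPM untreated and at 27.4, 16.2, 64.3 and 39.4 CPM after 1 h, which is 16 reads against 2957 over 4 libraries each. Its log2 fold change was 7.46 ± 0.40 by edgeR (adjusted p = 5.75e-16). Igtp, its neighbour, went from 0.302, 0.362, 0.30 and 0.361 CPM to 34.9, 21.9, 110.7 and 59.2 CPM, a change of 7.39 ± 0.38. Irgm1 was already expressed, at 66.2 to 70.7 CPM, and reached 299 to 738 CPM. Of 13 IRG genes tested 10 rose, against 1.08% of all genes tested, and the list's median of 5.58 compares with 0.0031 over all genes. Tgtp1 and Tgtp2 are among the 10 and are near-identical copies, so the split of reads between them is uncertain.

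Guanylate-binding proteins (GBPs), a second GTPase family, were less uniform, with 4 of 10 rising (1.08% of all genes tested) and a median of 0.32. Gbp3 went from 4.88, 5.48, 4.98 and 6.13 CPM to 23.5, 16.7, 48.0 and 37.8 CPM, a log2 fold change of 2.56 ± 0.20. Gbp7 rose by 1.95 ± 0.17 to 52.4 CPM ± 22.8 (SD, n = 4). Gbp2 was the most variable: it had 10 reads over the untreated libraries and stood at 0.603, 1.06, 9.37 and 2.38 CPM after IFN-gamma, so replicate 3 alone was well above the rest. Its log2 fold change was 4.72 ± 0.65 over all 8 libraries and 3.32 without that replicate, called in both. Gbp4, Gbp5, Gbp8, Gbp9, Gbp10 and Gbp11 had at most 19 reads over either group and did not pass.

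Sequence upstream of these genes was read from RefSeq promoter windows (GRCm38.p6, 250 bases before to 50 after each start), which matched 61 of the 89 genes that rose by at least 2-fold. The stretches shown carry the GAS letters TTCNNNGAA, which read the same on both strands, in genes that lead the response. They run 5′ to 3′ on the plus strand, which is the gene's own strand in each case, and capitals mark each GAS match and, in Irgm2 and Igtp, the ISRE letters GAAANNGAAA that follow it.
Irf1, chr11:53769896-53769960: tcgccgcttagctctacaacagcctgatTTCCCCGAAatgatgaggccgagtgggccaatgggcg
Irf8, chr8:120736159-120736223: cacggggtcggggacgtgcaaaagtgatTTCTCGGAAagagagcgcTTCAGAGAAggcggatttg
Irgm2, chr11:58214874-58214938: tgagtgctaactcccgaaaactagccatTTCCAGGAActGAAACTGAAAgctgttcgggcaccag
Igtp, chr11:58199483-58199547: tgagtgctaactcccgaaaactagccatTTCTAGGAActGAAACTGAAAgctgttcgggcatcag
Serpina3f, chr12:104214395-104214459: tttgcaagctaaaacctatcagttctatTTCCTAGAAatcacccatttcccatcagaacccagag
Icam1, chr9:21015870-21015934: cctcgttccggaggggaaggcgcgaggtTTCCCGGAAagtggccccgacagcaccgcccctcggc
Gbp7, chr3:142530202-142530266: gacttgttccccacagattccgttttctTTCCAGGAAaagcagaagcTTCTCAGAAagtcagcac
Irf8 and Gbp7 each hold a pair of GAS matches in the stretch. The stretches of Irgm2 and Igtp are nearly the same sequence, with GAS first bases at -75 and -45 from their starts.

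GAS letters were found in 27 of the 61 windowed genes that rose by at least 2-fold (44.3%), in 13 of 57 that rose less (22.8%), in 5 of 27 that fell (18.5%) and in 7.82% of 10813 genes not called. Over all tested genes with a window the share was 8.12%, and over the 27025 genes of the whole promoter set it was 9.55%. Of the 33 matches in the 27 genes, 24 began within 150 bases before the start. ISRE letters, searched on both strands, were in 14 of 61 (22.95%) of the genes that rose by at least 2-fold, in 7.02% of those that rose less, in 3.70% of those that fell and in 3.46% of those not called. For comparison, 443 windowed genes that were not called at 1 h but rose by at least 2-fold at 8 h (a rise called for 4.94% of all genes tested) held GAS letters in 10.4% and ISRE letters in 16.03%. Neighbouring members of a family, such as Irgm2 and Igtp, share promoter sequence and are not independent in these shares. A match describes letters in a window and is not a measured binding site.

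In antigen presentation the genes that passed the test were peptide processing genes and their regulator. Psmb9, an inducible catalytic subunit of the immunoproteasome, went from 0.648, 0.996, 1.2 and 0.661 CPM to 6.88, 5.06, 8.63 and 8.75 CPM, with no overlap and a log2 fold change of 3.08 ± 0.19 (edgeR, adjusted p = 4.45e-14). Nlrc5, the transactivator of MHC class I genes, rose by 2.67 ± 0.28, and the peptide transporter genes Tap1 and Tap2 by 1.32 ± 0.15 and 0.83 ± 0.18. With Psmb8 these were 5 of 14 processing genes tested (median 0.10). Without IFN-gamma replicate 3 the count was 3, with Tap2 at an adjusted p of 0.05 by edgeR, and it was also 3 in the fit of only the 8 libraries and in the lower library numbers. None of the 10 MHC class I chain genes passed at 1 h in edgeR or DESeq2 (median 0.07, 2 at an unadjusted p under 0.05), and all 10 were higher at 8 h, when 13.1% of all genes tested were. H2-K1, a classical class I heavy chain, was at 8.03, 9.51, 7.57 and 4.75 CPM untreated and at 8.99, 10.4, 5.09 and 5.54 CPM treated. B2m, the shared light chain, was at 25.5, 24.2, 21.4 and 19.5 CPM and then at 24.3, 25.8, 39.6 and 23.05 CPM, so its groups overlapped. None of 10 class II genes (0 at an unadjusted p under 0.05) and none of 14 constitutive 20S proteasome genes (2) passed in the main edgeR fit or DESeq2. At 1 h edgeR called 1.29% of all genes tested, so few calls would be found in lists of this size in any case. Ciita, the class II transactivator, had 8 and 20 reads over the groups.

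Some genes of secreted and surface molecules passed the test, where 1.08% of all genes tested rose. Cxcl1, a neutrophil-attracting chemokine, was at 0.173, 0.226, 0.060 and 0 CPM untreated and at 1.56, 1.44, 1.08 and 1.13 CPM treated, a log2 fold change of 3.30 ± 0.52 on 10 and 98 reads (edgeR, adjusted p = 7.44e-05). Csf1, a growth factor for microglia and macrophages, rose by 1.34 ± 0.22 to 45.6 CPM ± 12.2 (SD, n = 4). Cxcl10, a T cell chemokine, had 0 reads untreated and 9 treated and was not called. Cxcl1 and Csf1 were 2 of 8 chemokine and cytokine genes tested (median 0.20). By DESeq2 and in the lower library numbers the count was 1, and Cxcl1 was not called. Cd274, which encodes the checkpoint ligand PD-L1, went from 0.173, 0.317, 0.30 and 0.241 CPM to 2.76, 1.31, 7.51 and 2.62 CPM, and Icam1, an adhesion molecule for leukocytes, from 0.302, 0.453, 0.360 and 0.421 CPM to 3.47, 1.81, 6.91 and 5.12 CPM. Both were called (log2 fold changes 3.83 ± 0.42, or 3.12 without IFN-gamma replicate 3, and 3.49 ± 0.44) and did not overlap, and in both replicate 3 was highest and replicate 2 lowest. Neither call held in the isoform table summed per gene, where none of the 9 checkpoint, adhesion and death receptor genes was called.

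Protease inhibitors and complement regulators gave 5 rises among 11 genes tested (median 0.73), where 1.08% of all genes tested rose. The count was 3 without IFN-gamma replicate 1, by DESeq2 and in the lower library numbers. Serpina3f, of the serine protease inhibitor cluster, went from 0.086, 0.226, 0.060 and 0.180 CPM to 8.94, 4.18, 20.1 and 10.5 CPM, a log2 fold change of 6.24 ± 0.44 (edgeR, adjusted p = 5.35e-12). Serpina3i rose by 1.93 ± 0.15 with treated libraries close together, at 16.5, 12.6, 14.98 and 14.3 CPM. Serping1, the inhibitor of complement C1, rose by 3.93 ± 0.43 on 10 and 157 reads. Among cell death genes, Ripk1, a kinase at the branch between survival and necroptosis, rose by 1.13 ± 0.09 from 24.2 to 53.01 CPM, and Casp4, which senses cytosolic lipopolysaccharide, by 1.37 ± 0.31. The call of Casp4 was lost without untreated replicate 3 or IFN-gamma replicate 3 or 4 (adjusted p = 0.0725, 0.0656 and 0.0509 by edgeR). These were 2 of 10 cell death genes tested (median 0.54), beside the same 1.08% of all genes.

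Most classical antiviral genes did not pass the test at 1 h. Of 31 tested, 3 rose at 1 h (median 0.36), when 1.08% of all genes tested rose, and 29 at 8 h, when 13.1% were higher. The 3 were Trim21, a cytosolic antibody receptor (2.33 ± 0.15), Rtp4, a receptor chaperone (2.44 ± 0.30), and Eif2ak2, the RNA-activated kinase PKR (0.41 ± 0.10). The call of Eif2ak2 was lost without IFN-gamma replicate 1 or untreated replicate 1 or 4 (adjusted p = 0.107, 0.122 and 0.071 by edgeR). Isg15, a ubiquitin-like modifier, had 3 and 5 reads. Interferon-induced PARPs and their partners gave 4 rises of 8, with Parp14 at 2.72 ± 0.44 and its neighbours Dtx3l and Parp9 at 1.90 ± 0.21 and 1.49 ± 0.22, all on the log2 scale. The remaining rise, Rnf213 (0.49), lost its call in 7 of the 8 fits that leave out a library. Parp14 gave 0.97 without a call in the lower library numbers and 4.88 in the upper. The lower numbers left 2 rises in this list.

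**Figure D2:**
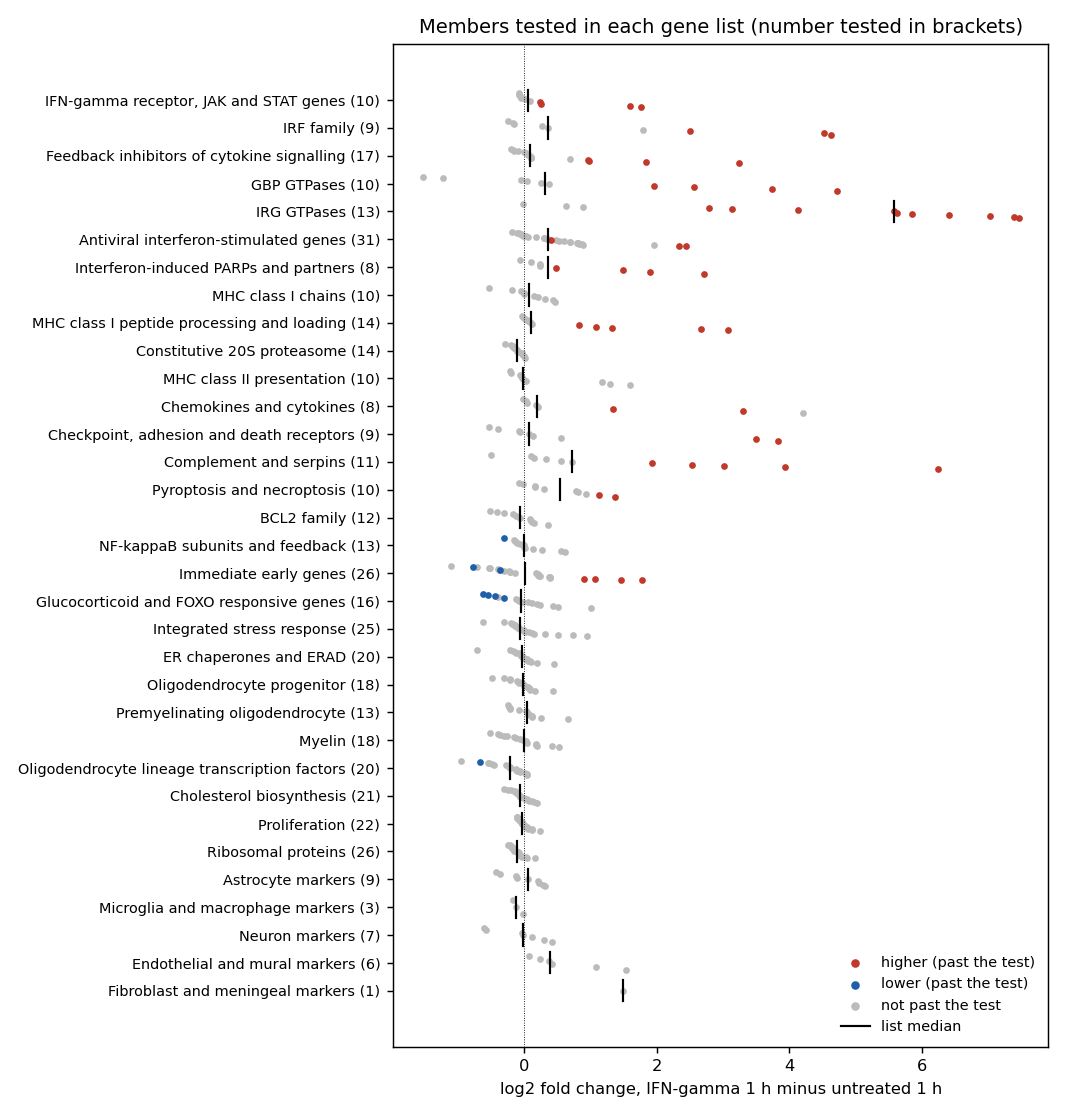
Each row is a gene list and each point a tested member, placed by its log2 fold change at 1 h and coloured by the call, with the list median as a black bar. The IRG genes reach furthest, with 10 of 13 higher (1.08% of all genes tested were). The medians of the lineage and stress lists lie between -0.21 and 0.05.

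Genes without a list among the 12 largest rises were 9330175E14Rik, 9530082P21Rik and Adamts15, a secreted metalloprotease. The transcript 9330175E14Rik went from 0.432, 0.181, 0.30 and 0.301 CPM to 14.1, 10.9, 15.8 and 15.2 CPM, the tightest treated values among the steepest rises (5.49 ± 0.25). It lies next to Nlrc5 among the tested genes, and because the use of strand in counting is not given, reads of overlapping or adjacent genes cannot be told apart. Of 162 rising genes with a position in GENCODE M21, 46 (28.4%) were next to another rising gene in the order of tested genes, against 1.75% of the 14934 others. There were 19 such runs, and the longest, of 4 genes, were the Serpina3f to Serpina3i cluster and Psmb9, Tap1, Psmb8 and Tap2.

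Immediate early genes, which respond to many stimuli within minutes, gave 4 rises and 2 falls of 26 tested (median 0.02). Over all genes tested 1.08% rose and 0.211% fell. In 6 of the 8 fits that leave out a library, 1 fall of the list was left. Zfp36, which encodes the mRNA decay factor tristetraprolin, went from 3.93, 2.81, 2.34 and 2.41 CPM to 10.7, 9.74, 10.3 and 8.93 CPM (log2 fold change 1.77 ± 0.19). Egr2, a zinc finger factor, rose by 1.47 ± 0.23 and Maff, a small Maf factor, by 1.07 ± 0.19. Fos and Egr1 gave 0.21 and 0.39 and were not called. Nr4a1, an orphan nuclear receptor of the same class, was instead the steepest fall by the naming rule: it went from 18.7, 18.3, 23.4 and 25.6 CPM to 12.3, 11.4, 12.5 and 13.8 CPM, a log2 fold change of -0.78 ± 0.15 (edgeR, adjusted p = 0.00177).

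The other falls touched several regulators, and all but 1 of them were under 2-fold. The exception was not named by the rule. Hes1, a Notch effector that restrains differentiation, went from 8.29, 8.195, 10.7 and 8.00 CPM to 5.68, 5.93, 4.62 and 5.90 CPM (-0.67 ± 0.17, adjusted p = 0.0291 by edgeR), and the Notch ligand gene Dll1 gave -0.55 ± 0.13. Of 16 glucocorticoid and FOXO responsive genes 4 fell and none rose (median -0.05), where 0.211% of all genes tested fell. The 4 were Klf15, Ddit4, Per1 and Nfkbia, with log2 fold changes of -0.62, -0.54, -0.44 and -0.30. The count was 2 without untreated replicate 3 or IFN-gamma replicate 2 and 3 without any other library. Amotl2, a YAP-binding scaffold, Cbx8, a Polycomb subunit, and Bcl6, a transcriptional repressor, gave -0.65, -0.58 and -0.56. Myc, the growth-promoting factor, fell by 0.36 on the log2 scale. Leaving out 1 library at a time, the call of Myc was lost in 7 of 8 fits, that of Dll1 in 6 and that of Per1 in 4. In all 32 falls the treated libraries lay below the untreated ones.

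The falls moved with base composition and with the choice of libraries. Their transcripts had a median GC content of 56.9%, against 49.5% for genes not called and 46.8% for rises. Across 10887 genes with a mean log2 CPM above 2, the log2 fold change had a Spearman correlation of -0.57 with GC content and 0.40 with transcript length, across genes that share the same 8 libraries. Medians fell from 0.09 in the quintile of genes lowest in GC to -0.12 in the highest quintile. With each library's trend on GC content and length taken out, 170 genes rose and 12 fell. Of the 163 rises 151 were called again, of the 32 falls 10, and all 32 falls kept their sign. Nr4a1, Hes1, Klf15, Amotl2, Cbx8 and Bcl6 passed in that fit, whereas Ddit4, Dll1, Per1 and Myc did not (adjusted p = 0.0696, 0.0745, 0.265 and 0.265). The log2 fold changes of these 4 were then -0.40, -0.48, -0.33 and -0.29. Leaving out any of the untreated replicates 1, 2 and 3 left 11, 16 and 15 falls, leaving out IFN-gamma replicate 1, 2 or 3 left 14, 17 and 15, and leaving out IFN-gamma replicate 4 gave 50. None of the 14 falls named by the rule was called in all 20 other settings, against 28 of the 46 named rises. Hes1 lost its call without any of untreated replicates 1, 2 and 3 or IFN-gamma replicates 1 and 3, and Nfkbia in 17 of the 20.

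**Figure D3:**
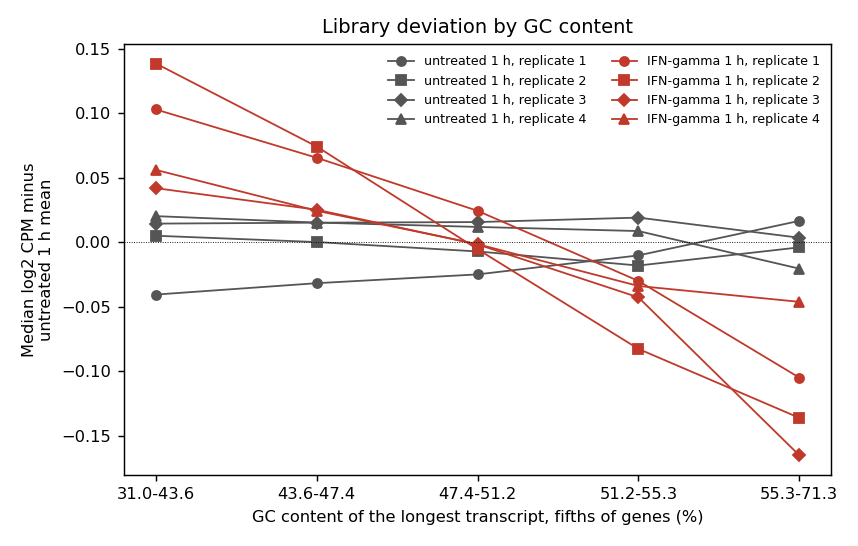
Genes were split into quintiles by the GC content of their longest transcript (horizontal, percent), and each line gives a library's median log2 CPM relative to the untreated 1 h mean (vertical). The 4 IFN-gamma lines slope downward, from 0.042 to 0.139 in the lowest quintile to between -0.046 and -0.165 in the highest. The 4 untreated lines stay between -0.0405 and 0.0203. Their own mean is the baseline, so they are centred on it by construction.

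Lineage and stress lists gave almost no calls at 1 h. Of all genes tested 1.29% were called, so lists of this size would hold few calls in any case. None of 18 progenitor, 13 premyelinating and 18 myelin genes passed in the main edgeR fit, with medians of -0.02, 0.05 and -0.01. At an unadjusted p under 0.05 there were 2, 0 and 1, and DESeq2 called 1 progenitor gene higher, 1 lower and none of the others. Pdgfra, the growth factor receptor of progenitors, was at 2257 to 2416 CPM untreated and at 2400 to 2536 CPM treated. Mbp, a main myelin protein gene, ranged from 26.99 to 62.7 CPM untreated and from 26.98 to 67.7 CPM treated. Hes1 was the only call among 20 lineage transcription factors, whose median was -0.21, by edgeR. In that list 4 genes had an unadjusted p under 0.05, DESeq2 called 2 lower, the fit of only the 8 libraries 3, and leaving out untreated replicate 1, 2 or 3 or IFN-gamma replicate 1 or 3 left no call. Olig2 gave -0.24 without passing. None of 25 integrated stress response genes and none of 20 ER chaperone and ERAD genes passed (3 and 4 at an unadjusted p under 0.05, 0 and 1 called by DESeq2), with Ddit3, the gene of the stress factor CHOP, at -0.13 and Hspa5, of the chaperone BiP, at 0.04.

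Markers of other cells gave no call in the main edgeR fit, where 1.29% of all genes tested were called. Of the microglia and macrophage list 3 of 14 genes had enough reads to test, and over the 4 libraries of a group Cx3cr1 had 5 and 7 reads, Itgam 1 and 3, and Tyrobp 2 and 6. The summed level of the 3 tested was 27.7 to 29.5 CPM untreated and 25.5 to 27.2 CPM treated. None of the 9 T and NK cell genes could be tested, and Ifng itself had 1 and 2 reads. Of 9 astrocyte genes tested, with summed levels of 429.8 to 490.1 CPM untreated and 389.6 to 490.7 CPM treated, none passed, nor did any of 7 neuronal (77.6 to 80.2 CPM untreated, 84.8 to 110.5 treated), 6 endothelial and mural or 1 fibroblast gene. At an unadjusted p under 0.05 there were 0 microglial, 0 astrocyte, 1 neuronal, 2 endothelial and mural and 1 fibroblast gene. DESeq2 called 1 gene in each of the last 2 lists. Other edgeR fits called 1 neuronal gene higher: the upper library numbers, the GC and length offsets, and without IFN-gamma replicate 1. Leaving out IFN-gamma replicate 2 or 4 gave 1 endothelial or mural call, and untreated replicate 4 or IFN-gamma replicate 1 gave 1 fibroblast call. The summed neuronal level was higher, and the summed microglial level lower, in all treated than in all untreated libraries. Tubb3 held most of the neuronal reads (3577 untreated and 4706 treated). Of the 7 neuronal genes 3 had a positive log2 fold change (median -0.01). Among single genes tested, all treated libraries were above in 4.74% and below in 4.18%. The part of these sums in the results was not tested. In bulk RNA, fewer cells of a type and less RNA per cell cannot be told apart.

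The size of the response differed between the 4 treated libraries in a shared order. Among 76 genes that rose by at least 2-fold and averaged at least 1 CPM after treatment, replicate 3 was highest in 52 and replicate 2 lowest in 55, and 40 followed the order 2, 1, 4, 3 from low to high. The highest library exceeded the lowest by a median factor of 1.88 at 1 h and of 1.15 at 8 h, and the factor was larger at 1 h in 68 of the 76. Within the lower library numbers the median log2 fold change of the 89 genes that rose by at least 2-fold was 1.58 and within the upper ones 2.57, with 82 genes larger in the upper. Irf1 gave 4.23 in the lower and 4.95 in the upper, and Igtp 6.38 and 7.99. Replicates 2 and 3, the pair with high Xist, lay at opposite ends of this order. They also differ in ribosomal-RNA-like reads (28.3% and 0.694%) and come from the lower and the upper library numbers. What sets the order was not tested.

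Most rises at 1 h were present later. Of the 163 genes, 141 were also higher at 8 h (13.1% of all genes tested were), 137 at 24 h (12.6%) and 137 at 48 h (16.9%), and each of these comparisons had its own untreated libraries. Of the 32 falls, 10 were lower at 8 h (12.1% of all genes) and 4 were higher, 6 were lower at 24 h (10.5%) and 8 at 48 h (19.9%). At 1 h, the level of the 89 genes that rose by at least 2-fold was a median of 27.9% of their IFN-gamma level at 8 h. It exceeded the 8 h level in 22 genes, was between 50 and 100% in 13, between 10 and 50% in 23 and under 10% in 31. The effect differed between 8 h and 1 h in 1874 genes of all those tested (12.4%).

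The fraction of the 8 h level reached at 1 h differed widely between named genes. Irf1 at 1 h was at 62.1% of its mean of 1018 CPM at 8 h, and Csf1 at 53.8%. Irf8 was at 27.7%, Socs1 at 4.65%, Psmb9 at 4.62% and Igtp at 3.31%. Gbp2, at 3.35 CPM ± 4.08 after 1 h, was at 0.037% of the 8964 CPM it reached at 8 h. Some levels were higher at 1 h than at 8 h. Cxcl1 was at 1.30 CPM at 1 h and 0.161 CPM at 8 h, where it was no longer called. Its effects at 8 h and 1 h did not differ by the interaction test, and its untreated libraries at 8 h held at most 0.143 CPM. Zfp36 stood at 9.92 CPM at 1 h and 4.71 CPM at 8 h, and Socs3 at 640 and 321 CPM. The untreated level of Socs3 fell over the same interval, from 325 to 154 CPM, and its log2 fold changes were 0.98 and 1.06, and the difference between them did not pass the interaction test (adjusted p = 0.886). Zfp36 fell in effect from 1.77 to 0.82 (adjusted p = 0.0146). In promoters, genes whose 1 h level was at least 50% of the 8 h level held GAS letters in 14 of 26 genes with a window and ISRE letters in 1. Those at 10 to 50% held GAS letters in 5 of 17 genes and ISRE letters in 4. Genes under 10% held GAS letters in 8 of 18 genes and ISRE letters in 9. The shares over all tested genes with a window were 8.12% for GAS and 3.59% for ISRE.

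**Figure D4:**
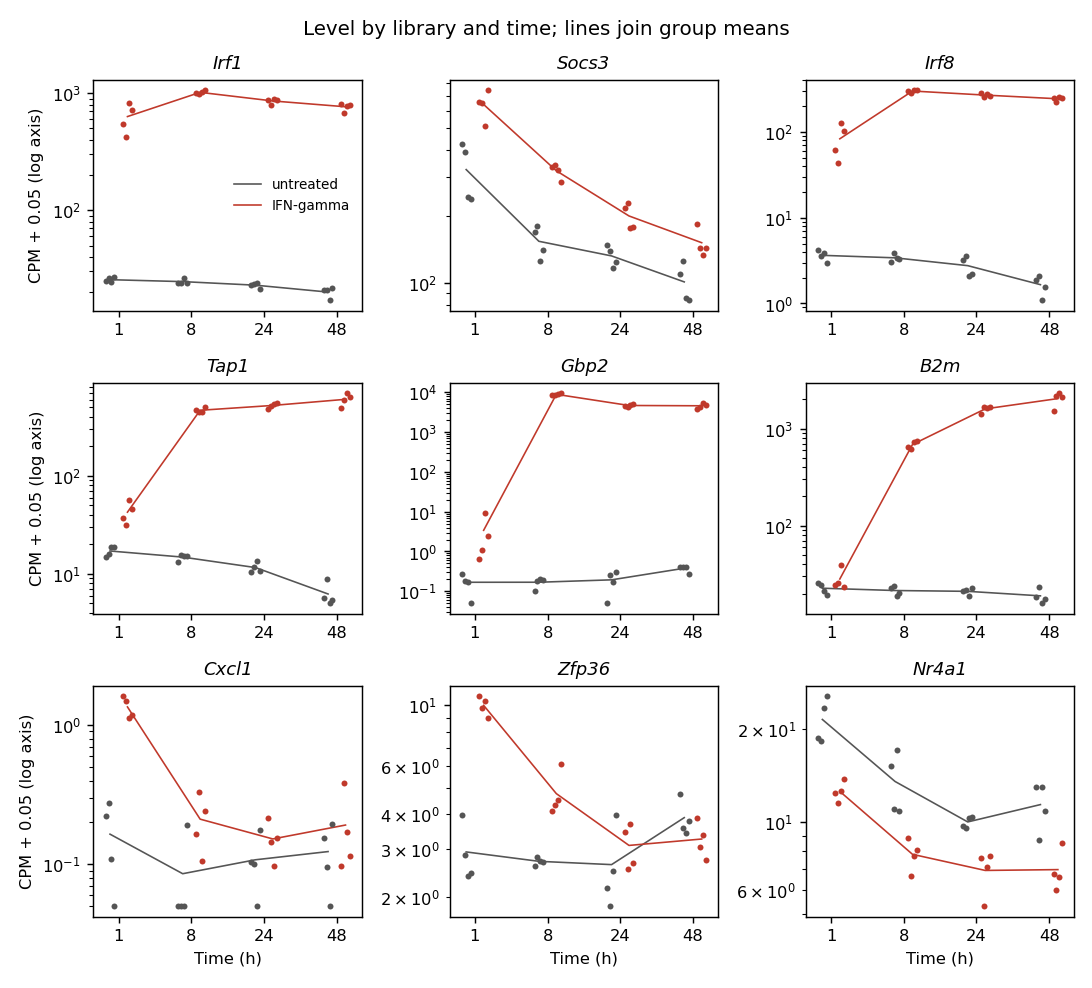
Points are single libraries, 4 per group, at 1, 8, 24 and 48 h (horizontal), with CPM plus 0.05 on a log axis (vertical) and lines through the group means. Irf1 at 1 h is at 62.1% of its 8 h mean, Tap1, Gbp2 and B2m are further below theirs, and Cxcl1 and Zfp36 are highest at 1 h.

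The deposited isoform table also showed which transcripts carried the early reads. For genes with both coding and retained-intron transcripts in GENCODE M21 and a mean of at least 20 estimated counts in each group, the share of the gene's estimated counts on retained-intron transcripts was computed per library. This share was above all untreated values in all 4 treated libraries for 10 of 26 genes that rose by at least 2-fold (38.5%) and for 11 of 31 that rose less (35.5%), against 2.63% of the 6380 genes measured and 1 of 13 that fell. The reverse order was found in 1 of the 26 (Icam1, named for this after its values were seen) and in 1.3% of all genes. The median share of the 26 was 13.2% untreated, 20.4% at 1 h of IFN-gamma and 10.3% at 8 h of IFN-gamma. In 17 of the 26 all 1 h treated libraries lay above all 8 h treated libraries, against 4.04% of all genes.

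For Psmb9 the retained-intron share was 17.9% ± 11.8 untreated, 75.8% ± 5.7 at 1 h and 24.2% at 8 h of IFN-gamma (SD, n = 4), on a mean of 21.3 estimated counts untreated and 152 treated at 1 h. Tap1 went from 10.2% ± 3.7 to 48.5% ± 3.1 and was at 13.8% at 8 h, and Psmb8, another immunoproteasome subunit, went from 11.6 to 37.97 and 4.25%. Parp3, a DNA repair PARP named here after its values were seen, went from 29.6 to 52.4 and 23.3%, and Irf8 from 6.64 to 22.8 and 6.66%. For Irf1 the groups overlapped, at 2.62% ± 1.24 and 2.80% ± 0.80. These are estimates that divide reads among overlapping transcripts, Psmb9, Tap1 and Psmb8 lie side by side, and introns kept in finished RNA cannot be told apart from RNA not yet spliced.

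**Figure D5:**
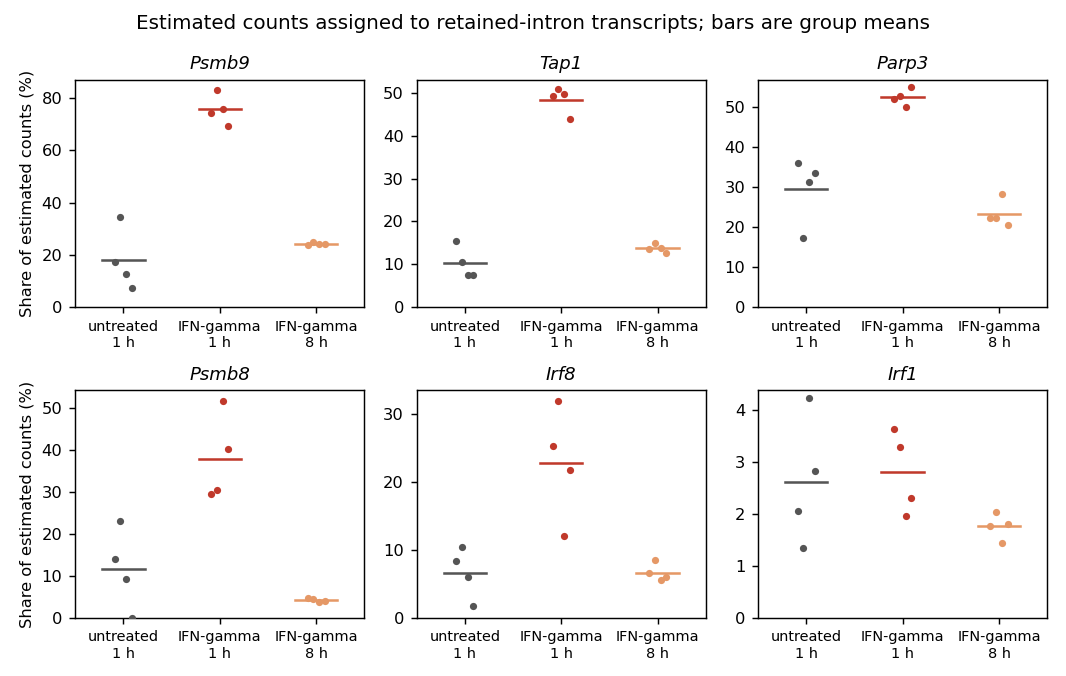
Points are the 4 libraries of each group and bars their means, with the share of a gene's estimated counts on retained-intron transcripts in percent (vertical, from 0). For Psmb9, Tap1, Parp3, Psmb8 and Irf8 the 1 h IFN-gamma libraries lie above the others, while for Irf1 the 1 h groups overlap.

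Thapsigargin, an inhibitor of the ER calcium pump, was compared at 1 h with the same 4 untreated libraries, so its values share those controls and are only set side by side (8.79% of all genes tested were called). Nr4a1 had a log2 fold change of -0.78 with IFN-gamma and 2.66 with thapsigargin, and Per1, a clock gene, -0.44 and 1.71. Fos was at 0.21 and 1.91, Egr2 at 1.47 and 1.17, and Zfp36 at 1.77 and 1.2. Irf1 was at 4.63 and 0.38, and Igtp at 7.39 and 0.67, which was not called with thapsigargin.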

How the data were processed

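Groups were taken from the labels. The deposited gene table holds raw counts of reads per gene (39056 rows, 38872 with a symbol). The deposited isoform table holds estimated counts per transcript (112588 rows, 112029 found in GENCODE M21). The submitters' processing notes list STAR, featureCounts, kallisto and edgeR. The tool roles, versions, genome build, annotation and strand use were not given in the sources used here. The only coordinates printed are those of the promoter stretches.

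Genes were filtered with filterByExpr by group and scaled by TMM. edgeR 4.0.16 (R 4.3.3) fitted 10 group means over all 40 libraries with 30 residual degrees of freedom. Each comparison was adjusted by Benjamini-Hochberg and called at 0.05. The prior count was 0.125, and SE is the log2 fold change over the root of F. Effects at 8 h and 1 h were compared as interactions. Named genes are the 12 largest rises and 12 largest falls called with no overlap and a mean log2 CPM of 1 or more, up to 4 called members of each of 34 lists, and 32 fixed genes. Not all of them are described, and 1 gene is not reported here. The comparison, the lists and the fixed genes were chosen with earlier results of these data known. The fits were tested on simulated data.

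The depth of 16046273 to 22227298 reads per library limits genes with few reads. Replicates differed by more than sampling noise: the smallest chi-square over its degrees of freedom was 5.46. Promoter sequences are RefSeq's (GRCm38.p6). Alternatives were RLE factors, DESeq2 1.42.0, no filter, only the 8 libraries, the lower and upper library numbers as a block or alone, a Y-linked covariate, 1 h libraries with Xist above the Y-linked level left out, ribosomal-RNA-like features removed, the isoform table summed and rounded, and each library left out. Offsets for GC content and length were added after the data were seen.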

Additional observations from a re-analysis of the deposited data

Results flagged for a closer look

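Of 152 groups of 4 libraries checked, 7 had a library far from the other 3 by Dixon's test, where chance gives about 1 in 20. In the untreated 1 h group this was replicate 3 for Hes1 (10.7 CPM against 8.00 to 8.29). In the IFN-gamma 1 h group replicate 3 stood high for B2m (39.6 CPM against 23.05 to 25.8), Ciita (0.777 CPM against at most 0.10) and Dtx3l (9.15 CPM against 4.43 to 4.88). Replicate 4 stood high for Ddit4 (55.5 CPM against 39.8 to 41.1), replicate 1 for Pdgfra (2536 CPM against 2400 to 2401), and replicate 2 for ribosomal-RNA-like reads (28.3% against 0.694 to 3.57%).

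The IFN-gamma effect differed between 8 h and 1 h by an interaction test (edgeR) for 8 of the 12 genes marked for that test. The effect at 8 h minus that at 1 h, on the log2 scale, was 0.74 for Irf1, 1.95 for Irf8, 3.66 for Tap1, 4.18 for Socs1, 4.59 for Psmb9, 4.68 for B2m and 5.62 for Igtp. Gbp2 gave 11.46, a value that leans on few untreated reads and on the prior count. Adjusted p-values for these 8 were at most 0.00107. Socs3 (adjusted p = 0.886), Cxcl1 (0.787), Icam1 (0.0618) and Nr4a1 (0.985) did not pass.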

How the results depend on the processing

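Falls were not stable in number. The 163 rises and 32 falls kept their sign in all 20 other settings, except that up to 16 rises were not measured there. In 192 of the 195 called genes the groups did not overlap, so fits on part of these libraries could hardly reverse a sign. The main counts were 195 called genes, 163 rises, 32 falls, 90 changes of at least 2-fold, 141, 137 and 137 rises also higher at 8, 24 and 48 h, 10 falls also lower at 8 h, and 1874 genes with a different effect at 8 h. DESeq2 gave 55 falls, 16 of them lower at 8 h, no filter 10 and 3, the summed isoforms 8 and 2, and GC and length offsets, chosen after seeing the data, 12 and 4. Only the 8 libraries gave 57 falls, and a Y-linked covariate 6 falls also lower at 8 h. The lower 20 library numbers gave 80 calls, 68 rises, 12 falls, 44 changes of at least 2-fold, 55, 51 and 57 rises higher at 8, 24 and 48 h, 3 falls lower at 8 h and 839 differing effects. The upper 20 gave 6 falls, 3 lower at 8 h, and 1031 differing effects; both hold fewer libraries. Leaving out the 4 libraries of 1 h with Xist above the Y-linked level (untreated replicate 1, IFN-gamma replicates 2 and 3, thapsigargin replicate 2) gave 115 calls and 3 falls. The lower and upper library numbers as a block gave 219 calls. Leaving out each library in turn gave 147 to 204 calls, 132 to 167 rises, 11 to 50 falls, 81 to 92 changes of at least 2-fold, 114 to 147, 111 to 142 and 111 to 137 rises higher later, 3 to 9 falls lower at 8 h and 1584 to 1784 differing effects. Other causes were not tested. The labels pair no single libraries across groups.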
